A study of Mus musculus with 6 samples.

Results

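Genes for the uptake of fatty acids and the storage of lipid were followed in ovarian cells of the mouse that had expressed Gli1 at a marked time in development. The list holds 10 genes (Fabp4, Fabp5, Pparg, Lpl, Cd36, Cfd, Plin2, Lipe, Pnpla2 and Dgat1), and every probe set that the platform annotation gives exactly 1 of these symbols was taken. For 9 of the 10 genes, of 18193 on the array, this gave 19 probe sets, of 45037 that are not controls. No probe set was named Cfd, the adipocyte protease adipsin, so it was not analysed here. The genes were chosen with earlier results of this comparison known, so their differences between the groups are given as a description. Counts of these genes past a threshold stand beside the share of all genes, and nothing is read from them.

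All mice were females of the strain 129S6/SvEvTac with the alleles Gli1-CreERT2 and Rosa-LSL-tdTomato, in which tamoxifen gives a lasting red label to cells that express Gli1, a transcription factor of the hedgehog pathway. Mesonephros-derived cells were labelled before birth, with tamoxifen on E12.5, then E14.5, then E16.5. Ovary-derived cells were labelled after birth, with tamoxifen reaching the pups at P1-3 through the nursing dam. Labelled cells of both groups were sorted from ovaries at 2 months and their RNA was put on arrays, 3 per group. Origin and age at tamoxifen changed together, and their effects cannot be told apart. The label records Gli1 at the time of tamoxifen, not the identity of the adult cell.

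Lipoprotein lipase (Lpl) frees fatty acids from circulating lipoproteins, the scavenger receptor Cd36 helps them into the cell, and the binding proteins Fabp4 and Fabp5 carry them in the cytosol. Dgat1 makes triglyceride, Plin2 coats the droplets in which it is stored, and the lipases Pnpla2 (ATGL) and Lipe (hormone-sensitive lipase) release it again. Pparg is a nuclear receptor that binds fatty acids and drives many of these genes in fat cells. Steroid-producing cells of the ovary keep droplets rich in cholesteryl esters, which Lipe can also split. Fabp4, Cd36 and Lpl are also known from endothelial cells, macrophages or adipocytes.

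Signals are MAS5 intensities on a linear scale, and a log2 change is the mean of log2(signal + 16) in mesonephros-derived minus that in ovary-derived arrays. A probe set passed the floor where its mean log2 value over the 6 arrays reached the 40th percentile over the array, which corresponds to a signal of 99.4. The brightest probe set of each of the 9 genes passed, and 12 of the 19 probe sets did; that of Fabp4 passed only through its signals in mesonephros-derived cells. By the brightest probe set 7 genes were higher and 2 lower in mesonephros-derived cells, a split that the choice of genes knew. Their median log2 change was 0.22, and that of all 11703 genes tested was −0.08, with 43.5% of those above 0.

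For 3 of the 9 genes, Fabp4, Plin2 and Pnpla2, no array of one group lay within the range of the other, and all 3 were higher in mesonephros-derived cells. Of all genes tested 22.2% did not overlap, 9.56% being higher and 12.6% lower. The same 3 were the only cases among the 12 probe sets past the floor, where 21.3% of all probe sets did not overlap. None of the 9 genes passed an adjusted p of 0.05 in limma, where 0.0427% of all genes did (0.0342% higher and 0.00854% lower), and 2 had an unadjusted p under 0.05, where 13.7% did. None of the 12 probe sets passed either, against 0.0148% of all probe sets. The choice of genes knew these values.

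Some properties of the arrays bear on every value. The mesonephros-derived arrays had correlations of 0.844 to 0.896 among themselves, and the ovary-derived arrays of 0.963 to 0.973. Poly-A spikes, control RNAs added in the laboratory, were 12.8, 13.0 and 2.47 times as bright as the mean of ovary-derived arrays on mesonephros-derived arrays 1, 2 and 3, and 0.711 to 1.61 times on ovary-derived arrays. Hybridisation spikes, which are added later, were 3.42, 2.76 and 1.40 times as bright on mesonephros-derived arrays 1, 2 and 3, and 0.838 to 1.24 times on ovary-derived arrays. For Gapdh the 3′ probe set was 5.29, 3.48 and 2.63 times as bright as the 5′ one on the mesonephros-derived arrays, against 1.94 to 2.86 times on the ovary-derived arrays, and such a ratio grows where RNA or cDNA is shortened. For Actb the ratio was 0.887 to 0.929 on mesonephros-derived arrays, against 0.920 to 1.01 on ovary-derived arrays. Mesonephros-derived replicate 1 had the highest Gapdh ratio, and the part of RNA quality in the differences of that array was not tested. The median SD of a gene was 0.48 log2 units over mesonephros-derived replicates, against 0.21 over ovary-derived replicates. Of the 9 genes 7 varied more in mesonephros-derived cells, as did 83.1% of all genes. Of 13 theca and stroma markers 11 had a named probe set and all 11 passed the floor, with summed signals of 91077 to 108200 over mesonephros-derived and 62474 to 68740.1 over ovary-derived replicates. The sums do not stand for every marker, as 7 had a log2 change above 0 and 4 below it. Acta2 alone read 21590 to 31905 over mesonephros-derived replicates, against 10857 to 13016 over ovary-derived replicates. The 4 below 0 were Gli1 (−0.81), Nr5a1 (−0.43), Ptch1 (−0.08) and Pdgfra (−0.02).

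**Figure D1:**
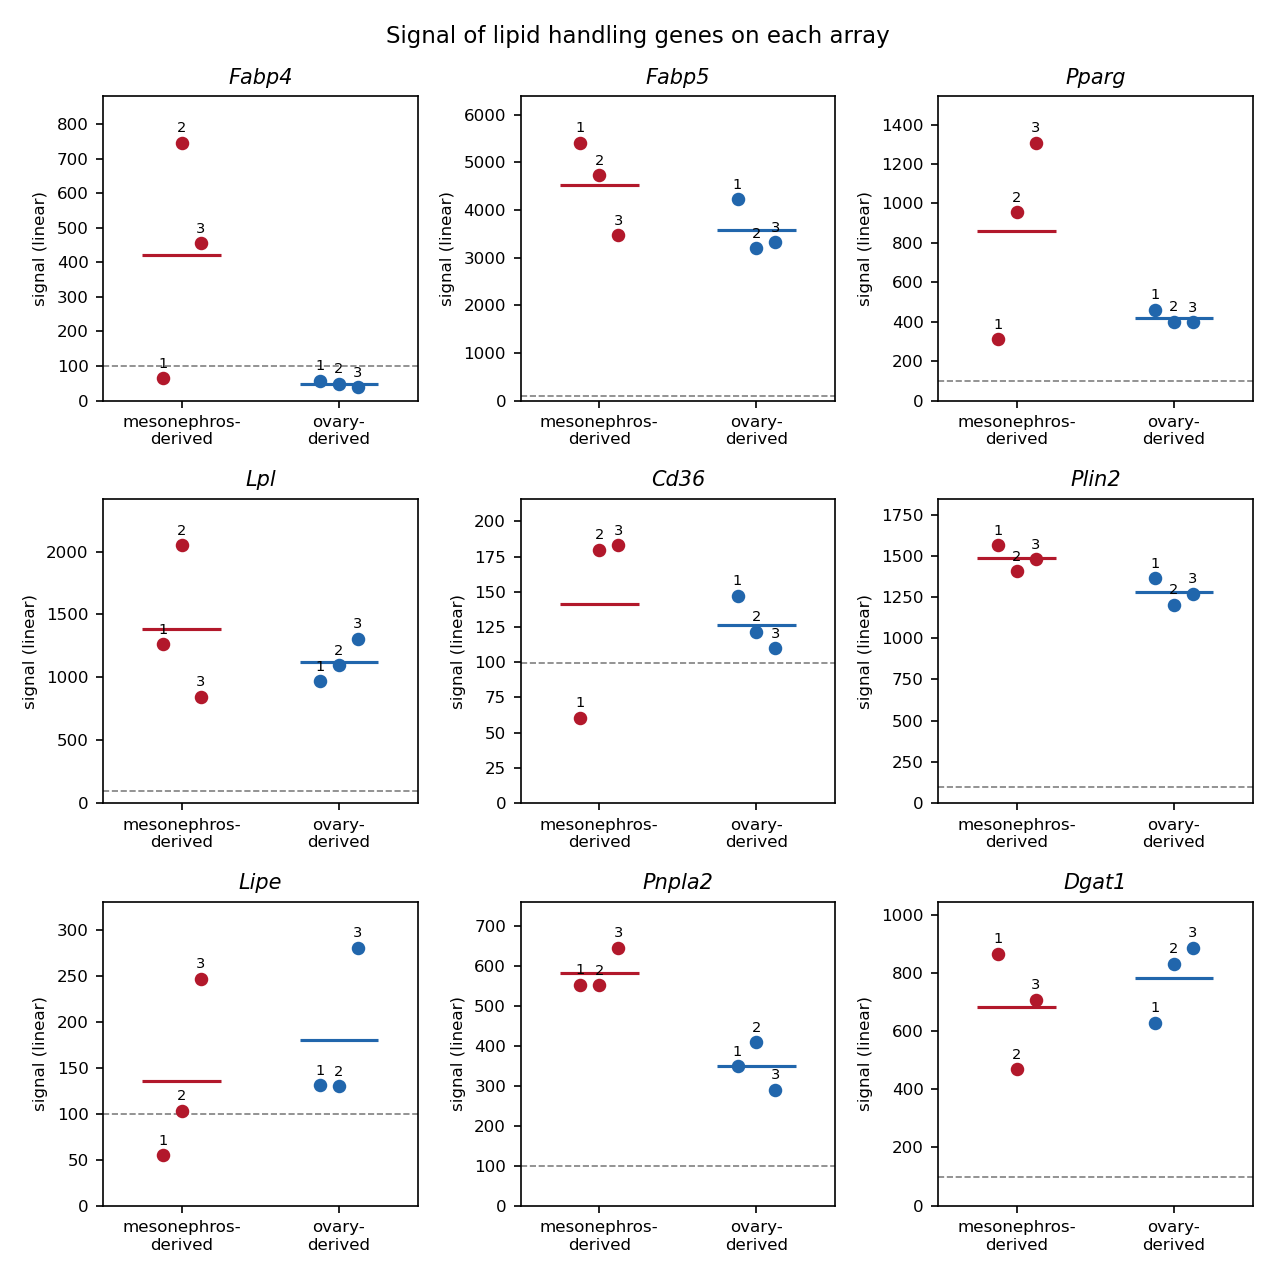
Signal of the brightest probe set of each gene on a linear axis from 0, with 1 point per array numbered by replicate, mesonephros-derived on the left and ovary-derived on the right of each panel. Short lines are group means and the dashed line is the floor of 99.4; the Pnpla2 signals of mesonephros-derived cells, 552 to 645, all lie above the 290.1 to 409 of ovary-derived cells, while Pparg and Fabp4 spread widely over mesonephros-derived replicates.

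Pparg, the receptor, was high on 2 of the 3 mesonephros-derived arrays. Its only probe set (1420715_a_at) had signals of 311, 956 and 1308 in mesonephros-derived replicates 1, 2 and 3, against 462, 399 and 398 in ovary-derived replicates 1, 2 and 3. Replicates 2 and 3 lay above every ovary-derived array and replicate 1 below every one of them, so the groups overlapped. The mean was 858 ± 506 in mesonephros-derived cells, against 419.6 ± 36.3 in ovary-derived cells (SD, n = 3 each), and the log2 change was 0.79 ± 0.48 (SE). Leaving out mesonephros-derived replicate 1 gave 1.38, leaving out replicate 3 gave 0.37, and a fit that includes the poly-A spikes gave 2.05 ± 0.81 (SE). The spikes were brightest in mesonephros-derived replicates 1 and 2, where Pparg was below and above the ovary-derived arrays. They were brighter on every mesonephros-derived array than on any ovary-derived one. A fit that includes them thus separates group from spikes poorly, and its SE was larger.

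Fabp4, the fatty acid carrier of adipocytes and a textbook target of Pparg, was high on the same arrays. Its brightest probe set (1451263_a_at) read 64.9, 746 and 455 in mesonephros-derived replicates 1, 2 and 3, against 56.9, 49.1 and 39.2 in the ovary-derived replicates. The groups did not overlap, but mesonephros-derived replicate 1 lay below the floor like all 3 ovary-derived arrays, so the difference was carried by replicates 2 and 3. With the ovary-derived arrays set to the floor, Fabp4 was at least 2.66-fold higher in mesonephros-derived cells. The fitted log2 change was 2.26 ± 0.76 (SE), and leaving out mesonephros-derived replicate 1, 2 or 3 gave 3.23, 1.61 or 1.96. The other 3 probe sets did not pass the floor and overlapped between the groups, with log2 changes of 0.19, 0.84 and 1.20.

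Fabp5, the carrier of skin and of many other tissues, overlapped between the groups. Signals were 5409.5, 4727 and 3469 in mesonephros-derived replicates, against 4227, 3194 and 3321 in ovary-derived replicates (probe set 1416021_a_at). Its log2 change was 0.33 ± 0.22 (SE) by that probe set and −0.18 ± 0.26 by the other (1416022_at). With the spikes included, the first gave −0.11 ± 0.38. The sign of Fabp5 thus depended on the probe set. The first was highest in mesonephros-derived replicates 1 and 2, those with the brightest spikes, and the other, with 874, 779.9 and 709.8 in mesonephros-derived replicates, against 1109.8, 704 and 901 in ovary-derived replicates, was highest in ovary-derived replicates 1 and 3. Of the carriers of other tissues, Fabp1, Fabp2, Fabp6 and Fabp7 did not pass the floor, and Fabp3, the muscle form, passed it and overlapped between the groups.

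Cd36, the fatty acid receptor, lay near the floor. Signals were 60.7, 180.0 and 183 in mesonephros-derived replicates 1, 2 and 3, against 147, 122 and 109.8 in the ovary-derived replicates (probe set 1450883_a_at). As for Pparg, mesonephros-derived replicates 2 and 3 were above and replicate 1 below all ovary-derived arrays. The log2 change was 0.026 ± 0.49 (SE), and leaving out mesonephros-derived replicate 1, 2 or 3 gave 0.48, −0.20 or −0.21. With the spikes included it was 0.84 ± 0.89 (SE). The other 2 probe sets were below the floor on every array.

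Lpl was high on only 1 mesonephros-derived array. Signals were 1265, 2049.5 and 847 in mesonephros-derived replicates 1, 2 and 3, against 968, 1096 and 1308 in the ovary-derived replicates (probe set 1415904_at). Mesonephros-derived replicate 2 was above and replicate 3 below all ovary-derived arrays. The dimmer probe set (1431056_a_at) also had replicate 2 highest and replicate 3 lowest, with 480.0, 752 and 132 in mesonephros-derived replicates, against 313, 305 and 357 in ovary-derived replicates. The log2 changes were 0.22 ± 0.33 and 0.17 ± 0.56 (SE), and without mesonephros-derived replicate 2 they were −0.11 and −0.33. With the spikes included, that of the brighter probe set was −0.83 ± 0.47 (SE).

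**Figure D2:**
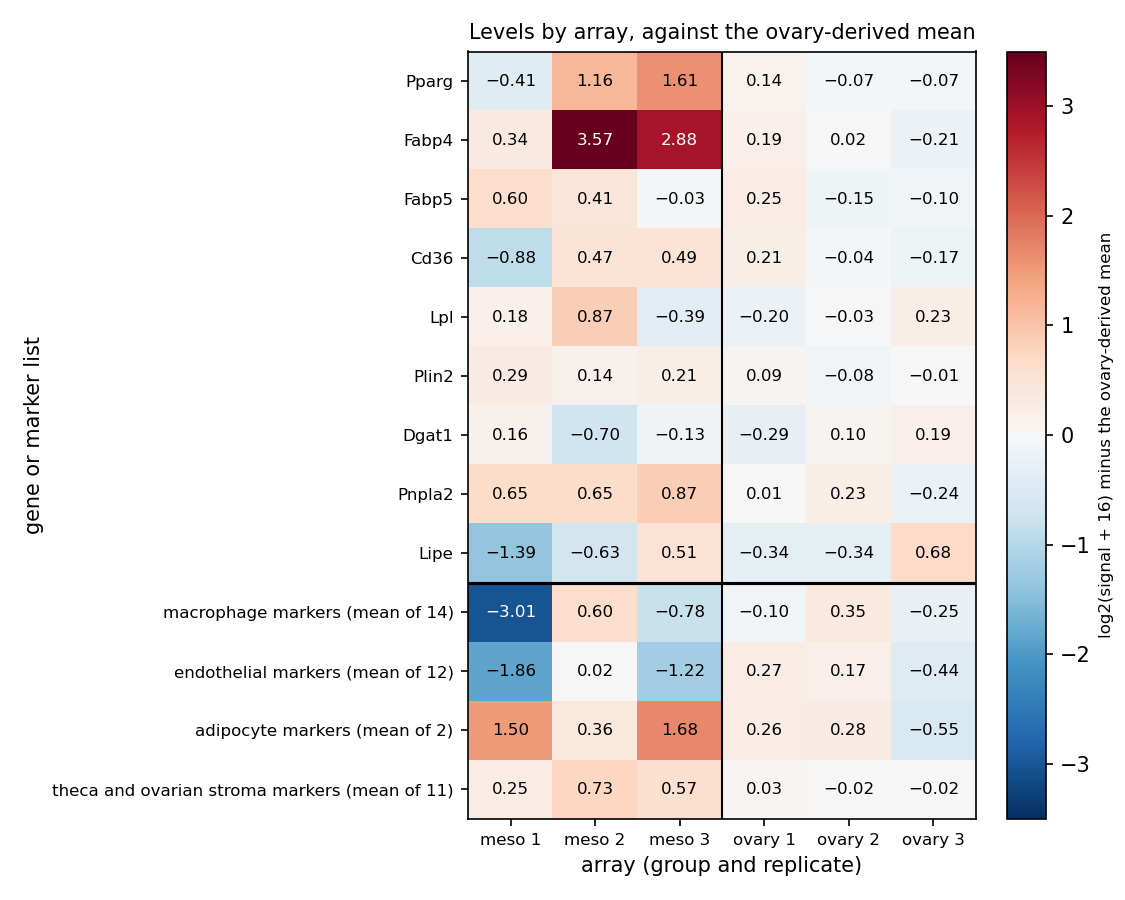
Colour and number give log2(signal + 16) on each array minus the ovary-derived mean, for the brightest probe set of each gene (upper rows) and for the mean of the tested genes of 4 marker lists (lower rows), with mesonephros-derived arrays left of ovary-derived ones. In mesonephros-derived replicate 1 Pparg and Cd36 are at −0.41 and −0.88 and the macrophage markers at −3.01, while Pnpla2 is between 0.65 and 0.87 on all 3 mesonephros-derived arrays.

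Markers of other cell types that hold Fabp4, Cd36 or Lpl differed between the arrays. The 17 macrophage markers summed to 1758, 19803 and 6266 in mesonephros-derived replicates 1, 2 and 3, against 9312, 13087 and 8621 in the ovary-derived replicates. In replicate 3 Fabp4 and Pparg were above all ovary-derived arrays while the macrophage sum was below all of them. In mesonephros-derived replicate 1 the macrophage sum was the lowest of the 6 arrays, as were Pparg and Cd36. In replicate 2 that sum was the highest of the 6, as were Fabp4 and Lpl, and the part of macrophages in those values was not tested. The tested markers were split in that replicate, with more above than below. C1qa, C1qb, C1qc, Lyz2, Tyrobp, Ptprc, Laptm5 and Mpeg1 were above all ovary-derived arrays. Csf1r, Mrc1, Fcgr3 and Adgre1 were below all of them, and Cd68 and Aif1 lay within their range. In these bulk samples fewer cells of a type and less RNA per cell cannot be told apart.

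All 14 macrophage markers tested had a log2 change below 0, with a median of −0.97, where 43.5% of all genes tested were above 0. Fcgr1 (0.76), Itgam (0.43) and Cd14 (−1.72) did not pass the floor and were not tested. The mean log2 value of the 14 stood at −3.01, 0.60 and −0.78 in mesonephros-derived replicates 1, 2 and 3 against the ovary-derived mean. Replicate 2 thus did not share the lower level. In limma 0 of them passed an adjusted p of 0.05 and 3 had an unadjusted p under 0.05, where 7.22% of all genes were lower at that level. Csf1r, the receptor for the macrophage growth factor, read 2.81, 615 and 461 in mesonephros-derived replicates, against 1300.2, 1583 and 1059.9 in ovary-derived replicates. It stood at −2.88 ± 1.12 (SE), Mrc1, the mannose receptor, at −1.71 ± 0.46, Aif1 at −1.93 ± 0.84 and the Fc receptor Fcgr3 at −0.87 ± 0.42 (limma adjusted p from 0.245 to 0.393). Csf1r had 2 other probe sets past the floor, at −1.75 and −0.03. Aif1 lay below the floor on 2 mesonephros-derived arrays and on no ovary-derived array, and its groups overlapped. Its mean log2 value over mesonephros-derived arrays was below the floor, so it passed only through the ovary-derived arrays. Its p, which is among the 3 counted, is no support for the difference.

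The 15 endothelial markers summed to 5196, 11992 and 6536 in mesonephros-derived replicates 1, 2 and 3, against 12752, 11898 and 8547 in the ovary-derived replicates. In replicates 1 and 3 the sum was below that of every ovary-derived array, and Fabp4 in replicate 3 was above all of them. The part of endothelial cells in the Fabp4 values was not tested. Of 12 markers tested 10 had a log2 change below 0 and 0 passed in limma. Their mean log2 value stood at −1.86, 0.02 and −1.22 in mesonephros-derived replicates 1, 2 and 3 against the ovary-derived mean. At an unadjusted p under 0.05, 4 were lower, where 7.22% of all genes were. Kdr, a receptor for vascular growth factor, stood at −2.89 ± 0.93 (SE), Pecam1, an adhesion protein, at −1.97 ± 0.72 and the transcription factor Sox18 at −1.52 ± 0.39, and the receptor Robo4 was at least 2.42-fold lower (limma adjusted p from 0.229 to 0.312). Robo4 lay below the floor on all 3 mesonephros-derived arrays and passed it only through the ovary-derived arrays. Its p is therefore no support for the difference. Kdr and Pecam1 lay below the floor on 2 mesonephros-derived arrays each and on no ovary-derived array, and their groups overlapped. Their mean log2 values over mesonephros-derived arrays were below the floor, so they too passed it only through the ovary-derived arrays. Their p is no support either, and the count of 4 includes Robo4, Kdr and Pecam1. Gpihbp1, which anchors Lpl to capillary endothelium, was below the floor on every array.

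Most adipocyte markers lay below the floor. Of 10 listed genes 8 had a named probe set, and 5 of these were below the floor on every array. Adipoq, the hormone adiponectin, had signals of 3.67 to 24.9 in mesonephros-derived replicates, against 11.4 to 32.4 in ovary-derived replicates. Lep, the hormone leptin, had 3.02 to 25.2 in mesonephros-derived replicates, against 6.20 to 23.6 in ovary-derived replicates. The 8 genes summed to 563 to 767 over mesonephros-derived and 377 to 441 over ovary-derived replicates. The sums do not stand for every marker. Adipoq, Lep, Cidec and Acvr1c had a log2 change below 0, and Plin4, Slc2a4, Retn and Adig above it. Of the 8 genes only Plin4, a droplet coat protein, and Slc2a4, the insulin-responsive glucose transporter, were tested. Plin4 read 177, 145 and 283 in mesonephros-derived replicates, against 75.1, 61.0 and 21.4 in ovary-derived replicates, all 3 below the floor. Its groups did not overlap, and it was at least 1.82-fold higher in mesonephros-derived cells (limma adjusted p = 0.263). Like Fabp4 it passed the floor only through the mesonephros-derived arrays, and it was no longer tested when any 1 of these was left out, so its p is no support for the difference. Slc2a4 overlapped, at 0.65 ± 0.57 (adjusted p = 0.625).

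Plin2, the coat protein of droplets in most tissues, varied least between replicates of the 9 genes, with an SD of 0.075 log2 units over mesonephros-derived and 0.089 over ovary-derived replicates. Signals were 1563, 1408 and 1480.3 in mesonephros-derived replicates, against 1363, 1203 and 1269 in ovary-derived replicates (probe set 1448318_at). Every mesonephros-derived array was higher than every ovary-derived one, by a narrow margin. The means were 1484 ± 77.6 in mesonephros-derived cells, against 1278 ± 80.1 in ovary-derived cells (SD, n = 3 each), a 1.16-fold difference with a log2 change of 0.21 ± 0.20 (SE). That SE, which limma takes partly from the spread of other genes of like intensity, was nearly as large as the change.

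Dgat1, the enzyme of the last step of triglyceride synthesis, overlapped between the groups. Its brighter probe set (1418295_s_at) read 868, 469.9 and 709 in mesonephros-derived replicates, against 629.7, 833 and 887 in ovary-derived replicates. Mesonephros-derived replicate 2 was the lowest of all, and the log2 change of −0.22 ± 0.30 (SE) was 0.017 without it. The dimmer probe set (1445229_at) stood at 0.16 ± 0.36, so the sign differed between probe sets. The ending _s_at marks probes that can match transcripts of more than 1 gene.

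Pnpla2, which starts the breakdown of stored triglyceride, differed between the groups by more than its replicates did. Signals were 553, 552 and 645 in mesonephros-derived replicates, against 348, 409 and 290.1 in ovary-derived replicates (probe set 1428143_a_at). The lowest mesonephros-derived array was well above the highest ovary-derived one. The means were 583 ± 53.6 in mesonephros-derived cells, against 349 ± 59.3 in ovary-derived cells (SD, n = 3 each), a 1.65-fold difference. The log2 change was 0.72 ± 0.29 (SE) and ranged from 0.60 to 0.84 as single arrays were left out. With means of its probe sets it was 0.53 ± 0.33, and with the spikes included 1.08 ± 0.51. The other probe set (1428591_at) did not pass the floor and overlapped, with a change of 0.33.

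Lipe, the lipase that acts after Pnpla2, did not share this pattern. Signals were 54.7, 103 and 247 in mesonephros-derived replicates, against 131, 129.9 and 280.5 in ovary-derived replicates (probe set 1422820_at). The groups overlapped, replicate 3 was the highest of each group, and mesonephros-derived replicate 1 lay below the floor. The log2 change was −0.51 ± 0.57 (SE), with −1.01 without mesonephros-derived replicate 3, −0.063 without mesonephros-derived replicate 1 and −0.17 without ovary-derived replicate 3. The sign turned when the spikes were included (0.53 ± 1.04 SE) and with array weights (0.14 ± 0.52), both within their SE of 0. Array weights give less weight to arrays that stand apart from their group.

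**Figure D3:**
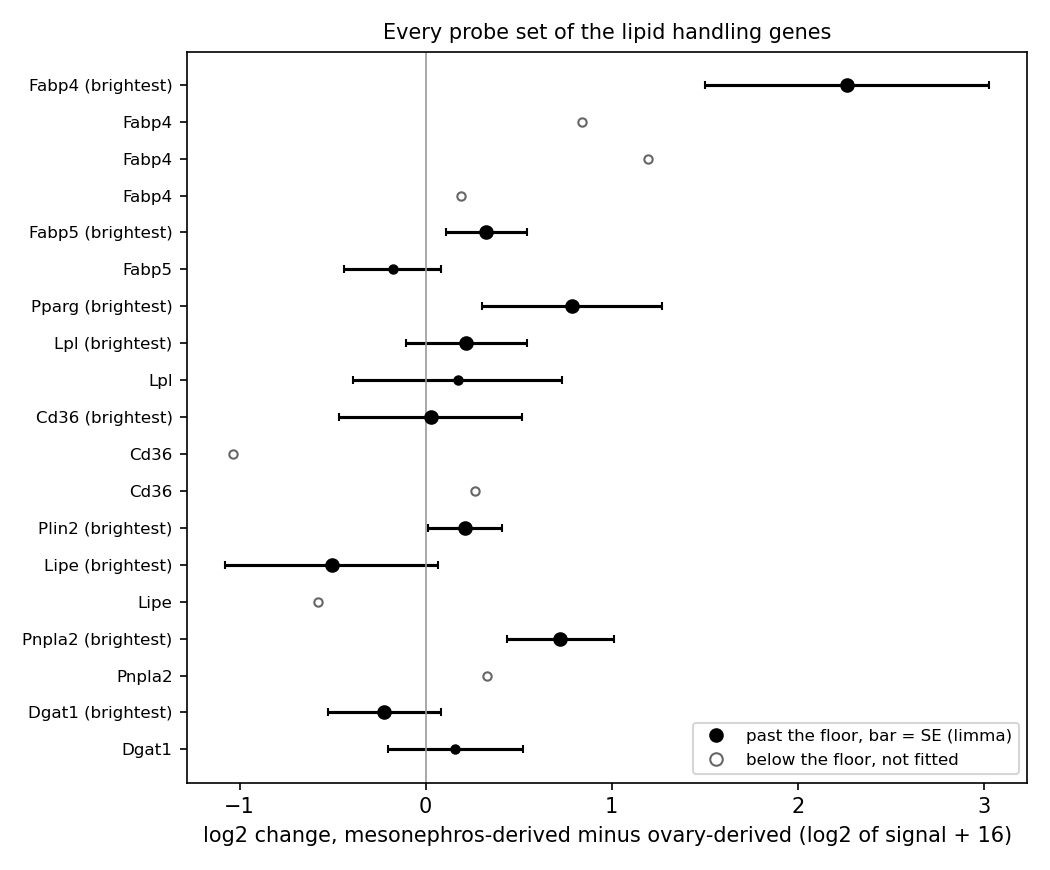
Log2 change, mesonephros-derived minus ovary-derived, of each of the 19 probe sets, grouped by gene. Filled points with bars (SE) are the 12 probe sets past the floor and open points the 7 below it, which were not fitted; Fabp5 and Dgat1 each have probe sets past the floor on both sides of 0.

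Promoter windows are shown for the 2 genes above the floor on all arrays whose groups did not overlap, Plin2 and Pnpla2, and for Cd36, which lay above or below the ovary-derived arrays together with Pparg. They run from 250 bases before to 50 after the gene start in RefSeq's annotation of GRCm38.p6, which is not the genome of the strain used here. Of the 10 genes 6 had windows, 9 in all. Capitals mark AGGTCA, the hexamer that nuclear receptors bind, on either strand (TGACCT where it lies on the opposite one).
Plin2, chr4:86670010-86670309, minus strand: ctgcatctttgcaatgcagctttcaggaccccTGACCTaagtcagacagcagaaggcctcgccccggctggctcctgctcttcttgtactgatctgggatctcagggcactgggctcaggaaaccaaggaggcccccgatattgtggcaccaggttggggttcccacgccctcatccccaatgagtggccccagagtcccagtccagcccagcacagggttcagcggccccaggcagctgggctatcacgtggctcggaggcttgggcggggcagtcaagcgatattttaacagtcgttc
Cd36, chr5:17835847-17836146, minus strand: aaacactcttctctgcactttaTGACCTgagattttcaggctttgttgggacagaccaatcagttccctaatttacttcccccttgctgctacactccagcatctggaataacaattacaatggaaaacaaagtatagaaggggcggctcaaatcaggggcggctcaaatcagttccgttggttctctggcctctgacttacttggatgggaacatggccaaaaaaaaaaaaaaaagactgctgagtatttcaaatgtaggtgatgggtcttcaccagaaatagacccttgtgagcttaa
Pnpla2, chr7:141454938-141455237, plus strand: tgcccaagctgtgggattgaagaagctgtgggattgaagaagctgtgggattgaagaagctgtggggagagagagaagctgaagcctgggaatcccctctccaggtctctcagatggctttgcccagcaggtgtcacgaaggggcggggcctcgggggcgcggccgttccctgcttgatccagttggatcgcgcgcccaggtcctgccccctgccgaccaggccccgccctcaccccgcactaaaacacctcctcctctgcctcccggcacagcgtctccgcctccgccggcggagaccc

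The hexamer was in 4 of the 9 windows, once each in Plin2, Cd36 and 2 of the 3 Pparg starts. It was also in 16.3% of all 32851 RefSeq windows of this length. In Plin2 and Cd36 it lay on the strand opposite to the gene, 218 and 228 bases before the start, and the Pnpla2, Lipe and Cfd windows did not hold these letters. A direct repeat of the hexamer with any 1 base between the copies, the form bound by Pparg with its partner RXR, was in 0 of the 9 windows and in 0.0396% of all windows. These are matches of letters in short windows and were not set against any measure of binding.

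Likeness across the 6 arrays was described by Pearson's r of log2 values. The points share their arrays, and no test was made. Pparg had an r of 0.91 with Fabp4 and 0.83 with Cd36, and of 0.0041 with Lpl. Pnpla2 had an r of 0.75 with Fabp4 and 0.72 with Plin2, and of −0.35 with Lipe. The most negative of the 36 pairs was Fabp5 with Lipe, at −0.83.

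For the 3 genes with the widest range over the arrays, the 5 most similar of all other tested genes were taken by the same measure. Fabp4, which spanned 3.79 log2 units, was closest to the histone gene H1f6, the transcription factor Zbtb16, the iron regulator Hjv, neuronatin (Nnat) and the proteoglycan biglycan (Bgn), at r of 0.987 to 0.995. As all these genes were picked by likeness, a pattern shared with Fabp4, Pparg or Lipe follows from that choice. Zbtb16 read 88.5, 1006 and 533 in mesonephros-derived replicates, against 65.3, 87.8 and 65.3 in ovary-derived replicates. Like Fabp4, Zbtb16 and Hjv lay below the floor on mesonephros-derived replicate 1 and on all 3 ovary-derived arrays. Pparg, spanning 2.02 units, was closest to Ell, Rap1a, Ciz1, the adipogenic transcription factor Cebpa and the electron carrier enzyme Etfdh, at 0.971 to 0.992. Cebpa had signals of 458, 949 and 1025 in mesonephros-derived replicates, against 691, 584 and 598 in ovary-derived replicates, and like Pparg was lowest of all in mesonephros-derived replicate 1. Lipe, spanning 2.07 units, was closest to Tesk2, Smc6, Naprt, Tacr3 and Ttpal, at 0.978 to 0.988.

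Other genes of lipid handling were counted in 7 lists that hold none of the 10 genes. Of 128 listed genes 116 had a named probe set and 88 were tested. By limma 0 of 88 passed an adjusted p of 0.05, where 0.0427% of all genes did. At an unadjusted p under 0.05, 8 were higher in mesonephros-derived cells, where 6.46% of all genes were, and 7 lower, where 7.22% were. The median change of the 88 was −0.07, against −0.08 for all genes tested. With array weights 3 of them passed, and without mesonephros-derived replicate 1 there were 2.

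**Figure D4:**
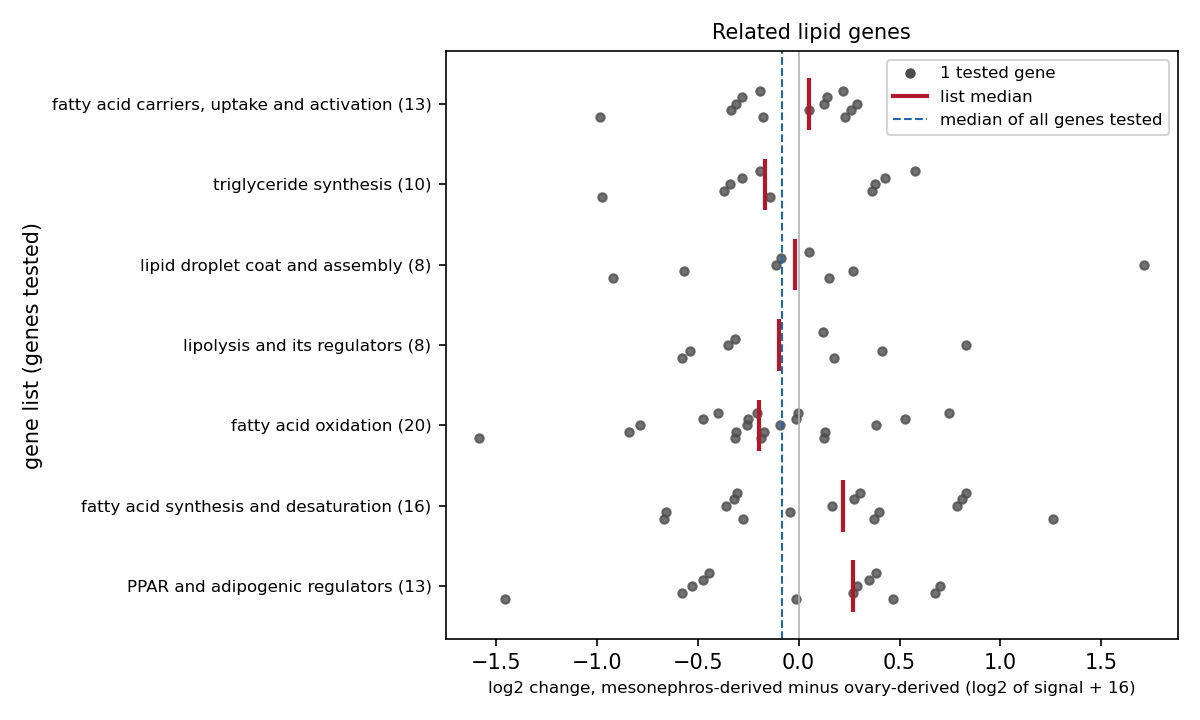
Log2 change, mesonephros-derived minus ovary-derived, of each tested gene in 7 lists of related lipid genes, with the number tested in brackets. Red bars are list medians, from −0.20 in fatty acid oxidation to 0.27 in the PPAR and adipogenic regulators, and the dashed line is the median of all genes tested, −0.08.

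Carriers, uptake and activation genes lay on both sides, 7 higher and 6 lower of 13, with a median of 0.05. None reached an unadjusted p of 0.05. Slc27a4, a fatty acid transporter, read 51.0, 264 and 357 in mesonephros-derived replicates, against 356, 330.1 and 406 in ovary-derived replicates, and its log2 change of −0.99 ± 0.61 (SE) rested largely on mesonephros-derived replicate 1. Acsl5, which activates fatty acids, stood at −0.31 ± 0.22 and the caveola proteins Cav1 and Cavin1 at 0.29 ± 0.20 and 0.22 ± 0.17 (limma adjusted p of the 4 genes from 0.487 to 0.586). The other probe sets of Cavin1 ranged from −0.26 to 0.65. Under quantile normalization the change of Cavin1 fell to 0.015 ± 0.15 (SE), and that of Cav1 was 0.21 ± 0.20.

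In triglyceride synthesis 4 of 10 were higher and 6 lower, with a median of −0.17. Gpam, which starts the pathway at the mitochondrion, read 10835, 10749 and 8342 in mesonephros-derived replicates, against 7860.5, 8199 and 6849 in ovary-derived replicates, without overlap (log2 change 0.38 ± 0.17 SE, limma adjusted p = 0.379). Agpat4, an acyltransferase, also did not overlap, at 0.58 ± 0.19 (adjusted p = 0.288). Their other probe sets had the opposite sign, at −0.34 and −0.14. Under quantile normalization the change of Gpam fell to 0.016 ± 0.14 (SE), while that of Agpat4 was 0.55 ± 0.18. Agpat1 and Gpat4 overlapped, at 0.37 ± 0.25 and −0.98 ± 0.67, and Dgat2, the other enzyme of the Dgat1 step, overlapped as well, at −0.19 ± 0.58.

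Coat and droplet assembly genes were split 4 and 4, with a median of −0.02. Beside Plin4, Hilpda, a droplet protein that inhibits Pnpla2, read 157, 136 and 166 in mesonephros-derived replicates, against 315, 263 and 334 in ovary-derived replicates (log2 change −0.92 ± 0.34 SE, limma adjusted p = 0.318). Every mesonephros-derived value was below every ovary-derived one. Plin3, a coat protein of nascent droplets, was also without overlap at −0.57 ± 0.30 (adjusted p = 0.427), and Aup1 overlapped at 0.27 ± 0.34. None of the coat genes passed the threshold, and those without overlap lay on both sides of 0.

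Among the genes of lipolysis 4 of 8 were higher and 4 lower, with a median of −0.10. G0s2, another inhibitor of Pnpla2, read 1072, 1431 and 2183 in mesonephros-derived replicates, against 792, 745 and 990.4 in ovary-derived replicates, without overlap (log2 change 0.83 ± 0.29 SE, limma adjusted p = 0.306). The values of the 2 inhibitors of Pnpla2, Hilpda and G0s2, thus lay on opposite sides of 0. Abhd6, which splits monoglyceride, did not overlap at −0.54 ± 0.35, and the protein kinase A subunits Prkar2b and Prkaca, which act upstream of Lipe, overlapped at 0.41 ± 0.24 and −0.58 ± 0.35 (adjusted p from 0.467 to 0.516). Abhd5, the activator of Pnpla2, overlapped at −0.35 ± 0.53.

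Fatty acid oxidation genes had a log2 change below 0 for 15 of 20, with a median of −0.20, and 0 passed in limma. Slc25a20, which brings acylcarnitine into mitochondria, read 175, 720.3 and 1062 in mesonephros-derived replicates, against 1677, 1566 and 1509 in ovary-derived replicates, without overlap (log2 change −1.58 ± 0.55 SE, adjusted p = 0.302). Eci1 and Decr1, which prepare unsaturated fatty acids for oxidation, were at −0.79 ± 0.23 and −0.84 ± 0.31 without overlap (adjusted p = 0.263 and 0.318). Acaa1a, a thiolase of peroxisomes, was at 0.53 ± 0.19 (adjusted p = 0.312), with its other probe set at −0.21. The mean of the list stood at −0.33, −0.32 and 0.06 in mesonephros-derived replicates 1, 2 and 3 against the ovary-derived mean, so replicate 3 did not share the lower level.

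Fatty acid synthesis and desaturation genes were higher for 9 of 16, with a median of 0.22. Fads2, the delta-6 desaturase, read 1795, 1671 and 2338 in mesonephros-derived replicates, against 1160.3, 1061 and 999 in ovary-derived replicates, without overlap (log2 change 0.83 ± 0.22 SE, limma adjusted p = 0.236), while its other probe sets were at −0.36 and −0.11. The elongase Elovl5 was at 0.37 ± 0.16 without overlap (adjusted p = 0.359). Fasn, the fatty acid synthase itself, lay on the other side of 0, with 756, 699 and 994 in mesonephros-derived replicates, against 1410.1, 1158 and 1294 in ovary-derived replicates (−0.66 ± 0.24, adjusted p = 0.311). Acss2, which activates acetate, was at 1.26 ± 0.45 and overlapped (adjusted p = 0.306), with its other probe set at 0.16.

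Regulators of adipogenesis and the PPAR family gave 7 higher and 6 lower of 13, with a median of 0.27. Cebpd, an early factor of adipocyte differentiation that also answers to glucocorticoids and cytokines, read 1965, 1175 and 1297 in mesonephros-derived replicates, against 3466, 3762 and 4859 in ovary-derived replicates. The groups did not overlap, and the log2 change was −1.46 ± 0.25 (SE, limma adjusted p = 0.106). Med1, a coactivator of Pparg, was at −0.47 ± 0.20 (adjusted p = 0.361), with other probe sets from −0.11 to 0.45. Ebf1 and Rxrb overlapped at 0.70 ± 0.35 and 0.39 ± 0.24, and the other probe sets of Ebf1 ranged from −0.27 to 0.41. Ppara and Ppard, the relatives of Pparg, overlapped at −0.53 ± 0.50 and 0.47 ± 0.43.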

How the data were processed

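RNA was measured on 6 arrays with 1 colour, 3 per group. The authors deposited intensities of probe sets on a linear scale, made with MAS5 per the submitters' processing notes, with settings and version not given. Each array's mean after trimming 2% at either end was 500, so the deposited intensities had been scaled. Per the labels' protocols the RNA was amplified from a set volume, so its mass could differ. No 2 arrays were identical.

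Of 45101 probe sets, 64 are controls. Of the rest, 34945 have 1 symbol, 932 several and 9160 none in the annotation used here. Through gene identifiers 34741 matched RefSeq (GRCm38.p6), and 0 symbols changed. Besides Cfd, 16 listed genes had no probe set named here.

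The log2(signal + 16) scale understates changes of dim genes. Of 18193 genes, each taken by its brightest probe set, 11703 passed the floor. limma 3.58.1 (R 4.3.3) compared the groups with eBayes and an intensity trend, with Benjamini-Hochberg adjustment over all genes tested; the method was tested on simulated data. A separate fit used all probe sets past the floor. Precision is limited by having 3 arrays a group, and nothing in the labels says that replicates are separate animals, so p-values cover the spread between these arrays alone, possibly technical.

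Members and lists were chosen with earlier results of these data known. The text names all members, the up to 4 tested genes with the smallest p of each lipid list and of the macrophage, endothelial and adipocyte lists, and the 5 genes most like each of the 3 members of widest range. Fabp1, Fabp2, Fabp3, Fabp6, Fabp7, Gpihbp1, Adipoq, Lep, Dgat2, Abhd5, Ppara, Ppard, Pnpla3 and Fads3 were named after their values were seen. So were the macrophage and adipocyte markers beyond those of smallest p. Alternatives were pseudocounts of 1 and 64, a 60th percentile floor or none, median centring, quantile normalization, means of probe sets, no _x_at or _s_at probe sets, eBayes without trend or robust, array weights, a replicate block, the poly-A spikes as a covariate, and each array left out.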

Additional observations from a re-analysis of the deposited data

How the results depend on the processing

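The count of 5 genes past the threshold (4 higher, 1 lower) was 3 with a pseudocount of 1, 2 with median centring (both higher), 8 with means of probe sets, 129 with array weights, and 0 with eBayes without the trend (1504 genes at an unadjusted p under 0.05) or with the poly-A spike covariate (311). It ranged from 0 to 46 with single arrays left out, being 46 without mesonephros-derived replicate 1, 3 without mesonephros-derived replicate 2, and 0 when mesonephros-derived replicate 3 or any ovary-derived array was missing (638 to 2432 at an unadjusted p under 0.05). Of related lipid genes 3 passed with array weights (Cebpd, Fads2 and G0s2), and 0 to 2 with single arrays left out, the 2 being Cebpd and Fads3 when mesonephros-derived replicate 1 was missing. Of the members 1 passed with array weights, and 0 to 1 with single arrays left out, which was Fabp4 by 1 probe set. Nothing is read from this, since Fabp4 was chosen with the comparison known and passed the floor only through mesonephros-derived arrays; it was not tested when mesonephros-derived replicate 2 or 3 was missing, or with means of probe sets. Plin4 was not tested with any mesonephros-derived array missing, with a pseudocount of 1 or with quantile normalization. Members without overlap numbered 3 to 5 with single arrays left out, where 27.2% to 40.1% of all genes did not overlap, an alternative chosen after seeing the data. Pparg and Cd36 joined when mesonephros-derived replicate 1 was missing, Fabp5 and Lipe when replicate 3 was, and Fabp5 when ovary-derived replicate 1 was.

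With the poly-A spike covariate the sign turned for Slc27a4 (0.33), Gpat4 (0.016), Aup1 (−0.16), Prkaca (0.22), Acss2 (−0.39), Ebf1 (−0.22), Tesk2 (0.36), Smc6 (0.039), Naprt (0.25), Tacr3 (0.42) and Ttpal (0.11). It turned for Tesk2 (0.18), Naprt (0.042) and Tacr3 (0.11) with array weights, for Agpat4 (−0.14) and Tacr3 (0.31) without _x_at and _s_at probe sets, and for Med1 (0.047) and Tacr3 (0.049) with means of probe sets. With single arrays left out Aup1 ranged from −0.17 (mesonephros-derived replicate 2 missing) to 0.54, and Tesk2 from −0.43 to 0.071 (replicate 1 missing). Since the poly-A spikes move with the groups, the fit that includes them has wide errors, with 0.33 ± 1.08 (SE) for Slc27a4. The cause was not tested. No member changed sign under quantile normalization or median centring, and each moved the median of all genes by less than 0.1. Single genes could move more, as the bright Gpam and Cavin1 did under quantile normalization, to 0.016 and 0.015. The fit with a replicate block gave 4 calls. Arrays of the same number deviated together with correlations of −0.010 to 0.071, so the numbers were not taken as pairs.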

Other observations

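Luteal and granulosa cells also hold lipid droplets, and their markers were counted too. Of 6 luteal markers 2 were tested and 0 passed an adjusted p of 0.05 in limma (1 was higher at an unadjusted p under 0.05, where 6.46% of all genes were). Both were higher in mesonephros-derived cells without overlap, where 9.56% of all genes were, and the 4 luteal markers with a named probe set summed to 858 to 1479.7 over mesonephros-derived and 480.5 to 498 over ovary-derived replicates. Of 5 granulosa markers tested 4 were higher and 1 lower, with 0 past the threshold and 0 at an unadjusted p under 0.05.

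Pnpla3, a relative of Pnpla2, did not pass the floor and was not tested. It read 316, 117 and 82.4 in mesonephros-derived replicates, against 50.6, 77.5 and 49.2 in ovary-derived replicates, without overlap.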
